A study of Homo sapiens with 2 samples.

Results

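Translation initiation and elongation factors are the proteins that load ribosomes onto mRNA and carry them along it. The genes described here were chosen by name: the deposited table was searched for symbols that start with EIF1 to EIF6, EEF1 or EEF2. This gave 62 genes, of which 4 EIF2AK kinase genes were left out and 0 were pseudogenes, leaving 58 of the 13137 genes in the table. By their current RefSeq names, 4 of the 58 (EIF2C1 to EIF2C4) are AGO1 to AGO4, the Argonaute proteins of RNA interference, and not initiation factors. They were kept in the counts as a group of their own.

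The libraries came from A549, an established human lung adenocarcinoma cell line. Both lines carried a lentiviral shRNA behind an H1 promoter with a tet operator, so that doxycycline switches the shRNA on, and both were kept with doxycycline for 4 days before 4 µg of total RNA was taken. The knockdown line was A549-H1tetO-shRNA-SOX2, with an shRNA against the transcription factor SOX2, and its control was A549-H1tetO-shRNA-Con, with a scrambled shRNA. Each was a pool of cells selected with puromycin, and A549 cells without any shRNA are not analysed here. What was measured was digital gene expression, in which short tags from poly(A) RNA are counted per gene, with 1 library per condition.

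With 1 library per condition there was no spread between cultures. Genes were therefore compared one by one with Fisher's exact test (two-sided), the p-values were adjusted for all 13137 genes by the Benjamini-Hochberg procedure, and a gene was called at a false discovery rate (FDR) of 0.001. This test compares the 2 libraries and not the conditions. Intervals of a ratio between the libraries are 95% Clopper-Pearson intervals. Where the tags of 1 gene are set against those of another, the interval is the 95% interval of a conditional odds ratio. All intervals cover counting error only. The shRNA-Con library held 2304184 gene tags and the library labelled shRNA-SOX2 held 2093816. They are named below the control library and the library labelled shRNA-SOX2. A ratio always has the control library as its denominator, after each count was divided by its library's total. The target gene SOX2 itself had 16 tags in the control library and 23 in the other (ratio 1.58, 0.80 to 3.20, adjusted p = 0.333 by Fisher's exact test). Its tags thus did not show the decrease that the label would give. The interval reached down to 0.80. At this depth a small decrease cannot be told from none, while a large one lies outside the counting error. The columns of the table carry the codes SC and S1. SC was read as shRNA-Con from its initials and S1 was the remaining column, so the sign of every ratio rests on that reading. Of 8 epithelial and A549 markers, 7 were listed, and their tags summed to 31187 in the control library and 39646 in the library labelled shRNA-SOX2. They were called in both directions, with KRT8 (7702 and 12729), ALDH1A1 (7035 and 14268) and KRT19 (35 and 127) higher, KRT18 (10318 and 7887) and AKR1B10 (6039 and 4581) lower, and EPCAM low with 8 and 4 tags. Of other cells, fibroblasts had 2 of 5 markers listed, with 46 and 52 tags that were mostly COL1A1 (44 and 43). Few or no tags were found for the rest, for leukocytes 2 of 4 with 13 and 12, and for endothelium 1 of 3 with 3 and 0. The part of these marker differences in the results below was not tested.

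Initiation begins when eIF1, eIF1A, eIF3 and eIF5 gather on the small ribosomal subunit with eIF2, which brings the initiator methionyl-tRNA together with GTP. eIF4E holds the mRNA cap, eIF4G bridges the cap to the ribosome and eIF4A unwinds the leader, which together make eIF4F. After the start codon is found, eIF5B joins the large subunit, eEF1A delivers each aminoacyl-tRNA, and eEF2 moves the ribosome on. Many mRNAs of this machinery begin with a cytosine followed by a run of pyrimidines, the 5′ terminal oligopyrimidine tract, through which mTOR and LARP1 control their translation. eIF2 and eIF4E are the steps at which cells set the rate of initiation, through eIF2 kinases and through the eIF4E-binding proteins.

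Annotated transcription starts of 7 factors are printed first, since the tract is read from the leading bases and since the 7 include subunits and paralogs that differed in their tags. They were taken from RefSeq promoters on GRCh38.p14, read 5′ to 3′ on the strand of the gene, with 10 bases before the annotated start and 20 from it on. Capitals mark a cytosine followed by at least 4 pyrimidines that begins within 5 bases of the start, and a window without capitals has none. EEF1A1 is at chr6:73521013-73521042 (minus strand), EEF2 at chr19:3985444-3985473 (minus), EIF4A2 at chr3:186783567-186783596 (plus), EIF4A1 at chr17:7572815-7572844 (plus), EIF3D at chr22:36529147-36529176 (minus), EIF2S3 at chrX:24054946-24054975 (plus) and EIF2S1 at chr14:67360318-67360347 (plus).
EEF1A1: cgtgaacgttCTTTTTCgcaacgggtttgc
EEF2: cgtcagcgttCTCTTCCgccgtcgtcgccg
EIF4A2: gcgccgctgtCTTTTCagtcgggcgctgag
EIF4A1: ggcactccgccctagtttctaaggatcatg
EIF3D: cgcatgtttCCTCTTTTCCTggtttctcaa
EIF2S3: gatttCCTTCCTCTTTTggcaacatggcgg
EIF2S1: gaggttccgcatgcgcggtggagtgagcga

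Tags of most translation factors were fewer where the label was shRNA-SOX2. Together the 58 genes held 75565 tags in the control library, which was 3.28% of its gene tags, and 55295 tags, or 2.64%, in the other library. The ratio of the sums was 0.805 (0.797 to 0.814), and 0.768 (0.758 to 0.778) without EEF1A1, the most abundant of them. Among the 57 whose tags summed over both libraries came to at least 20, 45 had a log2 ratio below 0 and 12 above it, with a median of -0.54 against -0.10 over all genes of that depth. With at least 100 tags the gap was smaller, with a median of -0.38 for 47 factors and -0.13 for all genes. A lower share of tags cannot be told apart from fewer cells expressing a gene, less RNA per cell, or more RNA of other genes.

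In all, 29 of the 58 factors passed the test, against 21.7% of all genes. Higher in the library labelled shRNA-SOX2 were 4 of them (background 9.53%), namely EIF4A2, EIF4A3, EEF1A2 and EEF1G, and 25 were lower (background 12.2%). Translation factors are abundant, with a median of 601 tags against 89 over all genes, and more tags make a call easier. Among the 47 with at least 100 tags, 27 passed, or 57.4%, against 39.1% of the 6237 genes with such depth. Of those, 4 were higher (8.51% against a background of 16.6%) and 23 lower (48.9% against 22.5%). By size alone, 20 of 57 were lower by at least 1.5-fold, or 35.1%, where 26.6% of all genes were, and 3 were higher, or 5.26%, where 20.5% of all genes were. At a depth of at least 100 tags the shares were 31.9% lower against 25.4% and 6.38% higher against 17.2%. With clean tags as the scale, 29 were lower by 1.5-fold and 2 higher. That scale also lowered the median log2 ratio of all genes from -0.10 to -0.22. The share of all genes past 1.5-fold is not given for it, so these counts have no background.

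**Figure D1:**
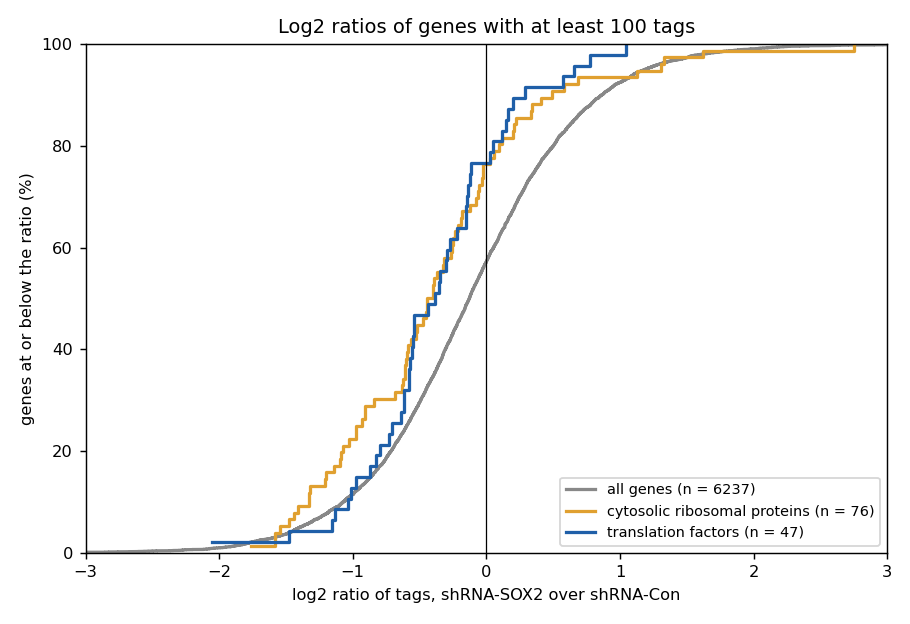
Cumulative share of genes (percent, vertical axis) at or below each log2 ratio of tags (horizontal axis) for genes with at least 100 tags, 1 library per condition. The curve of the 47 translation factors lies left of that of all 6237 genes around the middle (median -0.38 against -0.13) and the highest factor ratio is 1.04.

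How much of this would survive a spread between cultures cannot be measured here. When edgeR's exact test was given a biological coefficient of variation of 0.1, an assumption, 8 factors passed the same FDR (background 8.88%), namely EIF1, EIF1AX, EIF2S1, EIF2S2, EIF2D, EIF4EBP1 and EEF1E1 as lower and EIF4A2 as higher. With a coefficient of 0.2 only EIF4EBP1 passed (background 0.86%, adjusted p = 6.85e-04). The calls described below are those of Fisher's exact test.

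**Figure D2:**
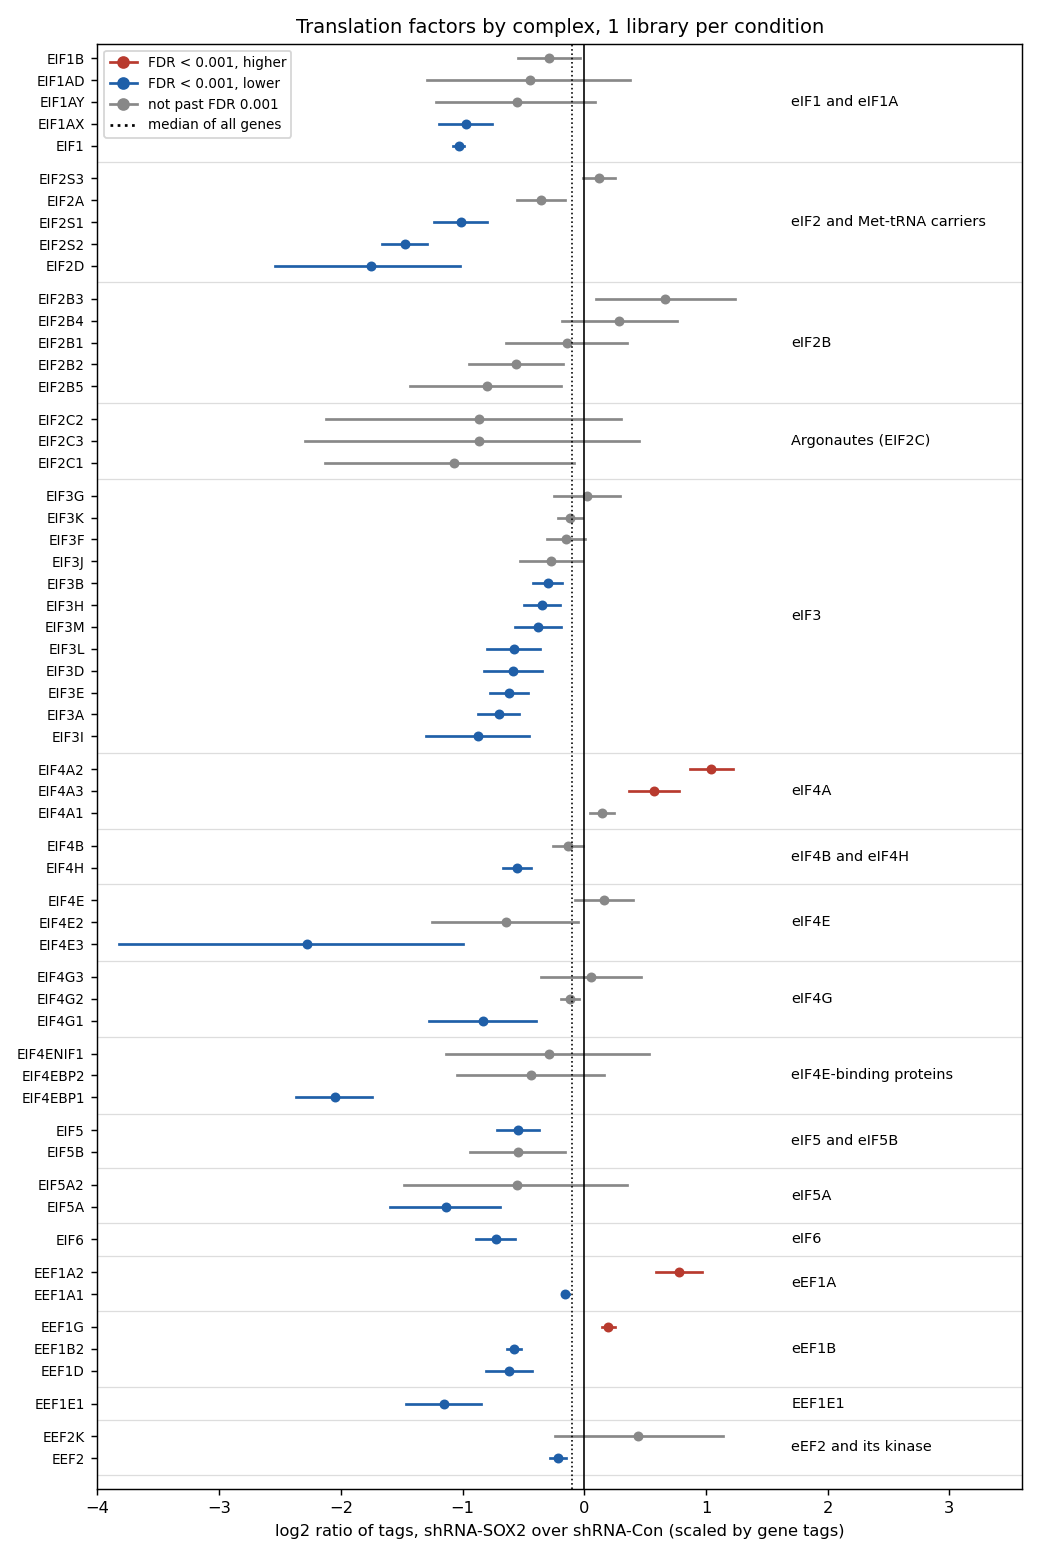
Log2 ratio of tags (horizontal axis) for the 57 factors with at least 20 tags, grouped by complex, with points for the ratio and bars for the 95% Clopper-Pearson interval (counting error only). Blue marks factors called lower, red those called higher and grey those not called, and the dotted line is the median of all genes at -0.10. All 3 eIF4A genes lie right of 0, and 8 of the 12 eIF3 genes are called lower.

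The scanning factors eIF1 and eIF1A went from 12625 to 5727 tags, the largest drop in number of tags of any group, though not in ratio, which was lower for the eIF4E-binding proteins (0.326), EEF1E1 (0.450) and eIF5A (0.493). EIF1, which guards start codon selection and was the initiation factor with the most tags, had 11683 in the control library and 5192 in the library labelled shRNA-SOX2. Its ratio was 0.489 (0.473 to 0.505, log2 -1.03), and its adjusted p by Fisher's exact test was too small to be represented. EIF1AX, the X-linked gene of eIF1A, had 555 and 257 tags (ratio 0.510, 0.438 to 0.592, adjusted p = 7.90e-19). EIF1B, a close relative of EIF1, had 299 and 222 tags and was not called. The ratio of EIF1 to EIF1B tags, which does not depend on scaling, went from 39.1 to 23.4, a 0.599-fold difference (0.50 to 0.718). The remaining members of the group had 33 to 55 tags in the control library and 22 to 34 in the other, and none was called. In the sum, the group ratio was 0.499 (0.484 to 0.515), and without EIF1 the log2 ratio was -0.68.

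The subunits of eIF2 did not move together, with beta and alpha lower and gamma not called. The beta subunit gene EIF2S2 had 971 tags in the control library and 317 in the library labelled shRNA-SOX2 (ratio 0.359, 0.316 to 0.408, adjusted p = 1.31e-62). EIF2S1, the alpha subunit on whose phosphorylation the stress response turns, had 565 and 254 tags (ratio 0.495, 0.425 to 0.575, adjusted p = 1.53e-20). In contrast, EIF2S3, the gamma subunit that binds GTP and the tRNA, had 967 and 955 tags (ratio 1.09, 0.993 to 1.19, adjusted p = 0.148). Thus EIF2S2 and EIF2S3 had nearly equal tags in the control library, and in the other there were 0.332 tags of EIF2S2 per tag of EIF2S3, a 0.331-fold difference (0.282 to 0.387). For EIF2S1 against EIF2S3 the fold was 0.455 (0.381 to 0.543). The starts of EIF2S3 and EIF2S1, printed above, also differ: EIF2S3 has a pyrimidine tract and EIF2S1 does not. EIF2S2 had no promoter entry. EIF2D, described next, has a tract within 5 bases of its start and a log2 ratio of -1.75. A link between tract and ratio was not tested.

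The alternative carriers of initiator tRNA had ratios below 1. EIF2D, which can place tRNA on the ribosome without eIF2, had 74 and 20 tags (ratio 0.297, 0.172 to 0.493, adjusted p = 1.74e-06). EIF2A, another tRNA carrier, had 516 and 367 tags (ratio 0.783, 0.683 to 0.897) and missed the threshold with an adjusted p of 0.00153, but passed it when the libraries were scaled by clean tags. With the sum over eIF2 and these carriers, the ratio was 0.681 (0.643 to 0.721), and without EIF2S3 the log2 ratio was -1.01.

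eIF2B, the exchange factor that recharges eIF2 with GTP, had 0 calls among 5 subunits. They had 46 to 149 tags in the control library and 35 to 92 in the other, and their log2 ratios ran from -0.80 for EIF2B5 (67 and 35 tags) to 0.66 for EIF2B3 (46 and 66 tags, adjusted p = 0.0481). The sum gave a ratio of 0.902 (0.779 to 1.04). For the Argonaute genes, counts were lower still. EIF2C1 had 30 and 13 tags, EIF2C2 20 and 10, EIF2C3 16 and 8, and EIF2C4 2 and 0, too few for a ratio. None was called, although the summed ratio was 0.502 (0.317 to 0.778).

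eIF3, the scaffold on the small subunit, was lower in most of its subunits. It had 12 genes in the table, and their sum was 8684 tags in the control library and 6227 in the library labelled shRNA-SOX2 (ratio 0.789, 0.764 to 0.815). Lower were 8 of the 12, and 0 were higher. EIF3I had the lowest log2 ratio at -0.87 (145 and 72 tags, adjusted p = 1.25e-04), followed by EIF3A at -0.70 (823 and 459, adjusted p = 3.54e-16) and EIF3E at -0.62 (907 and 537, adjusted p = 3.11e-14). EIF3D, a subunit that can itself bind caps, had 384 and 233 tags (log2 -0.58), and EIF3L had 467 and 284 (log2 -0.58). For EIF3M (572 and 399), EIF3H (892 and 638) and EIF3B (1371 and 1011) the log2 ratios were -0.38, -0.35 and -0.30. EIF3H and EIF3M were not called when the libraries were scaled by TMM factors or by the median ratio. The member with the most tags, EIF3K, had 1821 and 1523 (ratio 0.920, 0.859 to 0.986, adjusted p = 0.0457). EIF3F had 765 and 626, EIF3J 300 and 226, and EIF3G 237 and 219, without a call.

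eIF4A, the RNA helicase, was the initiation group with the highest summed ratio. Its 3 genes had 2413 tags in the control library and 2896 in the library labelled shRNA-SOX2 (ratio 1.32, 1.25 to 1.395). EIF4A2, a close paralog of EIF4A1, had 403 and 755 tags (ratio 2.06, 1.82 to 2.33, adjusted p = 9.77e-32), the highest ratio of all factors. EIF4A3, the helicase that anchors the exon junction complex and is not part of eIF4F, had 343 and 463 (ratio 1.49, 1.29 to 1.71, adjusted p = 2.10e-07). EIF4A1, the main helicase, had 1667 and 1678 tags (ratio 1.11, 1.04 to 1.19, adjusted p = 0.0110), and passed FDR 0.001 when TMM factors or the median ratio were used. The tags of EIF4A2 per EIF4A1 tag went from 0.242 to 0.450, a 1.86-fold difference (1.62 to 2.14). The paralogs differ at their starts, since EIF4A2 has a tract that begins at the first base and EIF4A1 has none. Of the 11 factors with a tract at the start, 5 were called lower and only EIF4A2 higher. A link between tract and ratio was not tested here either. EIF4A1 has 13 named pseudogenes in GENCODE 29 and EIF4A2 has 5, and how tags shared with such copies were assigned is not given in the sources used here.

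Neither helicase partner was higher. EIF4H had 1604 and 996 tags (ratio 0.683, 0.631 to 0.740, adjusted p = 3.52e-20), while EIF4B had 1173 and 970 (ratio 0.910, 0.835 to 0.992) and was not called.

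Of the cap-binding proteins, only the gene with the fewest tags was called. EIF4E, the cap-binding subunit of eIF4F, had 290 tags in the control library and 295 in the library labelled shRNA-SOX2 (ratio 1.12, 0.949 to 1.32, adjusted p = 0.297). EIF4E3, a relative with weaker cap binding, had 32 and 6 tags (ratio 0.206, 0.0705 to 0.50, adjusted p = 3.05e-04), and EIF4E2, which represses translation, had 67 and 39 without a call. The summed ratio was 0.962 (0.829 to 1.12), and without EIF4E the log2 ratio was -1.0. For the scaffold eIF4G, EIF4G2, which lacks the site for eIF4E, held most tags with 3002 and 2513 (ratio 0.921, 0.873 to 0.972, adjusted p = 0.00849). EIF4G1, the main scaffold of eIF4F, had only 133 and 68 (ratio 0.563, 0.414 to 0.759, adjusted p = 4.68e-04), and this call was lost with TMM factors or the median ratio. EIF4G3 had 105 and 99.

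Among factors with at least 100 tags, the lowest ratio was that of EIF4EBP1, the protein that holds eIF4E away from eIF4G until mTOR phosphorylates it. It had 479 tags in the control library and 105 in the library labelled shRNA-SOX2 (ratio 0.241, 0.193 to 0.299, adjusted p = 1.05e-48). EIF4EBP2 had 61 and 41 tags (ratio 0.740, 0.485 to 1.12), and EIF4ENIF1, which carries eIF4E into the nucleus, had 31 and 23. Neither was called, and without EIF4EBP1 the log2 ratio of the sum changed from -1.62 to -0.39. Set against its target, EIF4EBP1 had 1.65 tags per EIF4E tag in the control library and 0.356 in the other, a 0.216-fold difference (0.164 to 0.283). Against EIF4EBP2 the fold was 0.327 (0.204 to 0.527).

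Of the eIF5, eIF5B, eIF5A and eIF6 genes, EIF5, EIF6 and EIF5A were called lower. EIF5, which makes eIF2 hydrolyse its GTP, had 716 and 447 tags (ratio 0.687, 0.609 to 0.774, adjusted p = 4.06e-09). EIF5B, which joins the subunits, had 146 and 91 tags and nearly the same ratio (0.686, 0.522 to 0.897), but with fewer tags it was not called. EIF6, which keeps the large subunit from joining too early and acts in its assembly, had 892 and 490 (ratio 0.605, 0.540 to 0.676, adjusted p = 1.84e-18). EIF5A, the hypusine-bearing factor that relieves stalled ribosomes, had 145 and 60 (ratio 0.455, 0.331 to 0.619, adjusted p = 9.50e-07), and its paralog EIF5A2 had 29 and 18.

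Elongation factors differed from one another in direction. EEF1A1 had the most tags of all factors, 21756 in the control library and 17742 in the library labelled shRNA-SOX2 (ratio 0.897, 0.880 to 0.915, adjusted p = 1.82e-25). EEF1A2, the paralog best known from muscle and neurons, had 392 and 611 (ratio 1.72, 1.51 to 1.95, adjusted p = 7.19e-16). Tags of EEF1A2 per EEF1A1 tag went from 0.0180 to 0.0344, a 1.91-fold difference (1.68 to 2.18). EEF1A1 has 39 named pseudogenes in GENCODE 29, the most of any factor. The group sum followed EEF1A1 with a ratio of 0.912 (0.894 to 0.930).

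eEF1B, which recharges eEF1A with GTP, was split in the same way. The catalytic subunit gene EEF1B2 had 6535 and 3988 tags (ratio 0.672, 0.646 to 0.699, adjusted p = 1.12e-87), and EEF1D, the other catalytic subunit, had 622 and 369 (ratio 0.653, 0.572 to 0.744, adjusted p = 6.04e-10). EEF1G, the structural subunit, was higher with 5498 and 5721 tags (ratio 1.15, 1.10 to 1.19, adjusted p = 1.03e-11), a call that was lost when the libraries were scaled by clean tags. Free of scaling, EEF1B2 per EEF1G went from 1.19 to 0.697, a 0.587-fold difference (0.555 to 0.619), and EEF1D per EEF1G had a fold of 0.570 (0.497 to 0.653). EEF1E1, which in spite of its name belongs to the multi-tRNA synthetase complex, had 301 and 123 tags (ratio 0.450, 0.362 to 0.556, adjusted p = 1.30e-13). EEF2, the translocase, had 4224 and 3304 (ratio 0.861, 0.822 to 0.901, adjusted p = 1.17e-09), and EEF2K, the kinase that inhibits it, had 34 and 42 (ratio 1.36, 0.844 to 2.20, adjusted p = 0.343). Grouped by symbol alone, the 8 EEF genes, with EEF1E1 and EEF2K among them, had 2 higher (25.0%) and 5 lower (62.5%). The 46 EIF genes without the Argonautes had 2 higher (4.35%) and 20 lower (43.5%). Over all genes the shares were 9.53% and 12.2%. Depth was not matched, since median tags of genes with at least 20 were 4265.5 for EEF, 601 for EIF and 143 for all genes.

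**Figure D3:**
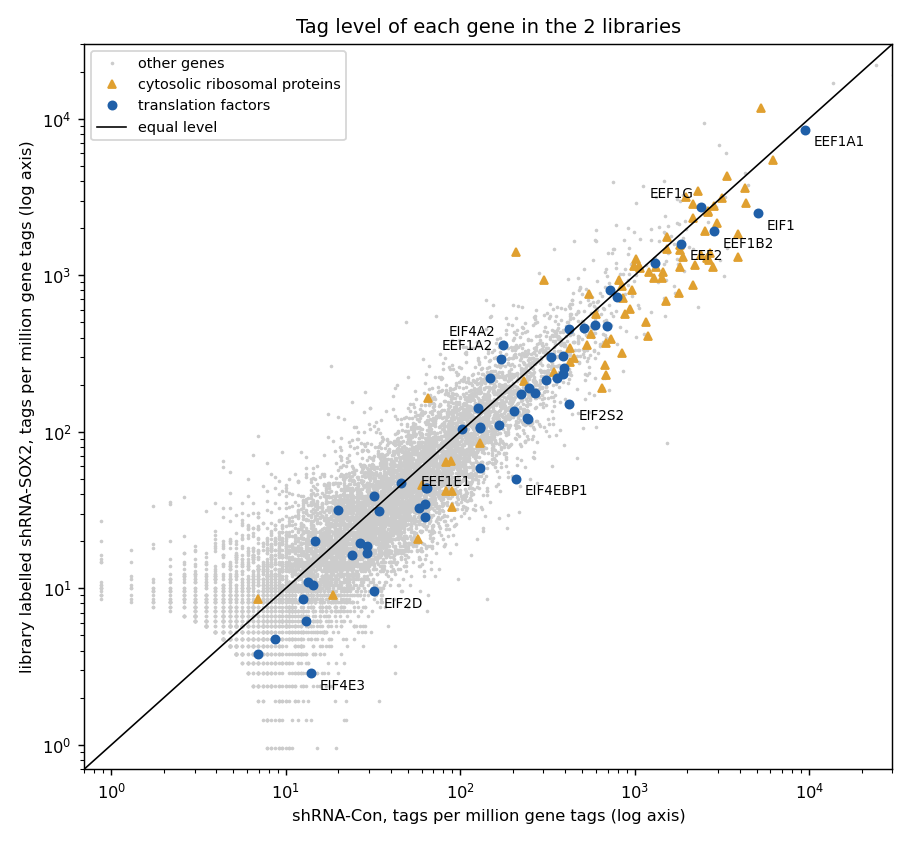
Tags per 1000000 gene tags in the shRNA-Con library (horizontal) and the library labelled shRNA-SOX2 (vertical), both on log axes, for genes with at least 20 tags that were above 0 in both. Translation factors (blue) and cytosolic ribosomal proteins (orange triangles) lie mostly below the line of equal level, with EIF4A2, EEF1A2 and EEF1G above it.

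The other main set of translation genes gives a comparison. Of 81 cytosolic ribosomal protein genes, 62 passed the test (76.5%, against 39.1% of all genes with at least 100 tags). Higher were 14 (17.3% against 16.6%) and lower 48 (59.3% against 22.5%). These shares are not matched for depth. The 78 with at least 20 tags had a median depth of 4882 tags, against 260 in that background, and a median log2 ratio of -0.42. The summed tags of all 81, 304720 and 292304, gave a log2 ratio of 0.08, opposite in sign to the median. That sign rested on RPS19, a small-subunit protein with 37058 and 83198 tags, since without it the sum gave -0.22. It also turned with clean tags as the scale (-0.035). For the translation factors the median and the log2 ratio of the sum, -0.31, had the same sign.

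Genes that work next to the factors gave mixed counts, to be read against the 21.7% of all genes that were called. The shares were near that background for poly(A) binding, accessory initiation and mitochondrial factors (22.2% for the last). Depth was not matched, since median tags of genes with at least 20 were 620, 360.5 and 315 for these lists and 143 for all genes. The same shares were below the 39.1% of all genes with at least 100 tags. Of 6 termination and recycling genes 4 passed: ETF1, the release factor (532 and 273 tags, log2 -0.82, adjusted p = 7.49e-14 by Fisher's exact test), and ABCE1, which splits ribosomes (409 and 243, -0.61), were lower, while the rescue factor gene PELO (212 and 279, 0.53) and the release factor gene GSPT2 (44 and 81, 1.02) were higher. Among 5 listed genes of poly(A) binding only PABPC1, the main poly(A)-binding protein, passed (1577 and 832, -0.78, adjusted p = 9.57e-37). In 8 accessory initiation genes, CTIF (89 and 12, -2.75) and NCBP2 (235 and 101, -1.08), both of nuclear cap-binding initiation, were lower. Of the 6 genes that phosphorylate eIF2 or undo it, the nutrient-sensing kinase gene EIF2AK4 was higher (50 and 103, 1.18) and the stress-induced phosphatase subunit gene PPP1R15A lower (271 and 84, -1.55).

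Regulators of eIF4F and eEF2 were split as well. LARP1, which binds the pyrimidine tract, had 919 tags in the control library and 341 in the other (log2 -1.29, adjusted p = 1.90e-48 by Fisher's exact test). MTOR itself was higher with 118 and 182 tags (0.76), as was PDCD4, an inhibitor of eIF4A, with 57 and 113 (1.13), and the other 5 of the 8 did not pass. Among 6 hypusine and diphthamide enzymes, which modify eIF5A and eEF2, DPH5 was higher (115 and 187, 0.84). DHPS and DOHH, the hypusine enzymes, had 78 and 44 and 35 and 13 tags without a call. None of the 2 selenocysteine genes passed the test, with 25 and 30 tags for EEFSEC and 95 and 47 for SECISBP2 (adjusted p = 0.489 and 0.00224). Of 9 mitochondrial factor genes, MTIF2 was lower (265 and 99, -1.28) and TSFM higher (219 and 309, 0.63), and the other 7 did not pass.

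Starts of the mRNAs were read for the 48 factors that had a RefSeq promoter entry. A cytosine followed by at least 4 pyrimidines within 5 bases of the annotated start was found in 19 of 48, or 39.6%. It was found in 22.8% of the listed genes with a promoter entry and in 21.1% of all 27305 promoters. With the cytosine at the start itself the share was 11 of 48, or 22.9%, and 42 of 64 (65.6%) for cytosolic ribosomal proteins. It was 5.36% of the listed genes with a promoter entry and 4.04% of all promoters. The 11 factors were EIF2A, EIF2D, EIF2S3, EIF3D, EIF3F, EIF3K, EIF3M, EIF4A2, EIF4B, EEF1A1 and EEF2. Their median log2 ratio was -0.16, with 5 called lower and 1 higher, and that of the 37 factors without it was -0.55, with 13 lower and 2 higher. In the ribosomal protein genes the medians stood the other way round, at -0.45 with the tract and -0.08 without. Over all listed genes with a promoter entry the order was also opposite to that of the factors, at -0.15 with the tract and -0.11 without. With the wider window the medians were -0.27 and -0.55 for the factors, the same order with a smaller gap. For the ribosomal protein genes they were -0.40 and -0.37, so that the contrast in those genes depends on the window.

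From 250 bases before to 50 after the start, searched on both strands, the E-box CACGTG was found in 11 of 48 factors (22.9%), in 10.1% of the listed genes with a promoter entry and in 7.44% of all promoters. Factors with an E-box were EIF1B, EIF2B3, EIF3K, EIF3F, EIF4A3, EIF4H, EIF4B, EIF4E, EIF4G1, EIF5A2 and EEF2K. Their median log2 ratio was -0.14, with 2 lower and 1 higher. The 37 without one had a median of -0.54, with 16 lower and 2 higher. Over all listed genes with a promoter entry the order was the opposite, at -0.16 with an E-box and -0.11 without. The letters CATTGTT, a SOX motif, were in 0 of 48 factors, in 1.63% of the listed genes and in 3.38% of all promoters. TGATGNAA, the composite motif of CHOP and ATF4, was in 0 of 48, in 1.88% and in 3.67%. A match is only a match of letters at annotated starts, which need not be the starts used in A549, and these counts carry no test.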

How the data were processed

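Digital gene expression was measured in 1 library of A549 cells with shRNA-SOX2 and 1 with shRNA-Con. The authors deposited tag counts per Entrez gene without normalization, made from oligo(dT)-purified mRNA at the Beijing Genomics Institute. The labels name hg19, and the aligner, counter and annotation are not given in the sources used here. Counts of 1 do not occur, and the smallest count above 0 is 2. The authors also deposited TPM values, the counts per 1000000 clean tags of the whole library, which served only to obtain the clean tags (3456232 under the label shRNA-SOX2 and 3516266 in the control). Their own log2 ratios, p-values and FDR were not used, nor were the gene coordinates, which carry no chromosome.

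From the counts, log2 ratios were computed after division by gene tags, with a count below 3 set to 3, and medians and the 1.5-fold rule used genes with at least 20 tags. Fisher's exact test was used at FDR 0.001 (Benjamini-Hochberg, over 13137 genes), the threshold in the study's methods. Depth limits precision to the intervals printed at best, and these cover counting error only, since there was 1 library per condition. Tags without molecular identifiers are not independent molecules, so even the counting error may be larger than the intervals show. Python 3.11.15 (scipy 1.17.1, pandas 2.3.3) and R 4.3.3 (edgeR 4.0.16, DESeq2 1.42.0) were used, and the steps were tested on simulated data. Alternatives were scaling by TMM factors (0.975 and 1.03), by DESeq2's median ratio or by clean tags, edgeR's exact test with an assumed coefficient of variation of 0.1 or 0.2, a minimum of 10 or 100 tags, FDR 0.05, 2-fold, 0.5 added to each count, and leaving out members. Full statistics were given for the member with the most tags in each complex and for called members with the highest and lowest ratios, up to 12 each way, and for lists at most 3 called genes per direction. Members and lists were chosen with earlier results of these data known. All 58 symbols were matched to RefSeq by gene ID, and promoters were taken from RefSeq on GRCh38.p14. Where a gene has near-identical copies or named pseudogenes (26 factors have the latter), its counts are uncertain.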

Additional observations from a re-analysis of the deposited data

How the results depend on the processing

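The cause of the shifts named here was not tested beyond what each setting does by construction. With an assumed coefficient of variation of 0.1 or 0.2, the 29 calls became 8 (1 higher, 7 lower) or 1 (0 higher, 1 lower). At 2-fold, 1 factor was higher and 9 lower, in place of 3 and 20, and the share of all genes at 2-fold is not given. Under the other settings the number of calls ran from 26 (without genes with near-identical copies) to 37 (FDR 0.05). The genes left out for such copies were only EEF1A1, EIF1AX, EIF1AY, EIF4A1 and EIF4A2. The remaining factors with named pseudogenes, such as EIF1 and EEF1B2, were kept in that setting. The median log2 ratio of the factors ran from -0.65 with clean tags to -0.38 with at least 100 tags. Scaling by clean tags lowered the median of all genes by 0.11 (log2), from -0.10 to -0.22, and left 10 factors above 0 in place of 12. Of the calls over all genes, 56.1% were lower as reported, 49.4% after TMM scaling and 66.6% under clean tags, and for the factors 86.2%, 81.5% and 90.6%.

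Log2 ratios of sums moved as follows. With TMM factors, the median ratio and clean tags they were -0.93, -0.93 and -1.12 for eIF1 and eIF1A, -0.27, -0.27 and -0.46 for eIF3, -0.060, -0.063 and -0.25 for eEF1A, -0.12, -0.12 and -0.30 for eEF1B, -0.14, -0.14 and -0.32 for eEF2 and its kinase, and -0.24, -0.24 and -0.43 for all factors. The sum of eIF4E, whose interval spans 0, was 0.02 with TMM factors and 0.01 with the median ratio. With clean tags the log2 ratios were -0.67 for eIF2 and carriers, 0.29 for eIF4A, -0.47 for eIF4B and eIF4H, and -0.25 for eIF4G. Without the member with the most tags, the sign turned for eEF1A (0.78) and for eEF2 and its kinase (0.44), since in each a single gene was left, and for eIF2B, whose interval spans 0 (0.04). The same step gave -0.68 for eIF1 and eIF1A, -1.01 for eIF2 and carriers, -0.41 for eIF3, 0.85 for eIF4A, -0.14 for eIF4B and eIF4H, -1.0 for eIF4E, -0.37 for eIF4G, -0.39 for the eIF4E-binding proteins, -0.55 for eIF5A, -0.58 for eEF1B and -0.38 for all factors. For the ribosomal protein genes, settings chosen after seeing the data gave -0.22 without RPS19 and -0.035 with clean tags, against 0.08. Of the 57 single factors, 53 kept direction and call with TMM factors and with the median ratio. All 57 did with 0.5 added to each count. With clean tags 52 kept their call. Among these, the sign turned for EIF3G (log2 0.02 to -0.09) and EIF4G3 (0.05 to -0.06), neither of which was called. No paired analysis was possible because there was only 1 library per shRNA, which also left no replicate to leave out.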
